A study of Homo sapiens with 20 samples.

Results

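The chromatin loops of chromosome 11 were followed along its length in 2 isogenic pairs of human glioblastoma multiforme (GBM) cell lines. The members were all anchor pairs on chromosome 11 in the 4 loop lists of the series, 32767 of 572000 distinct pairs, and an anchor is a stretch of about 5 kb at one foot of a loop. Chromosome 11 was selected on its log2 ratios of loop strength, which were already known, so its values are a description and carry no test. H4 and 42MGBA each have an endogenous mutation of STAG2. The lines H4 88-1 and, from 42MGBA, 42MGBA 53-1 carry a corrected STAG2, and they are labelled as STAG2-WT and called STAG2-corrected here. All lines were grown in DMEM with 10% fetal bovine serum and no further treatment. Each corrected line is a single clone, so an effect of the correction and a difference between clones cannot be told apart. Hi-C, which joins and counts stretches of chromatin that lie close together in the nucleus, was made from 2 biological replicates of each line, and the authors pooled them into 1 list of the 300000 strongest pairs. With 1 list per line no spread between replicates could be computed, and each difference below compares those lists. The lists hold no expression values, so the labelled cell types were not checked against marker genes.

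Cohesin is a ring-shaped complex that holds DNA and draws it out into loops. STAG2 and its close relative STAG1 are alternative subunits of that ring, and STAG2 is inactivated in several tumor types, GBM among them. An extruding cohesin often stops where CTCF, a zinc finger DNA-binding protein, sits on its motif, so strong loops commonly have a CTCF motif at each foot, with the motifs pointing toward each other. A loop in a Hi-C list can also join a promoter to a distal element without such motifs. Chromosome 11 carries the imprinted IGF2 and H19 region at the tip of its short arm (11p). The CD44 gene lies further along 11p, and CCND1, the CADM1 and NCAM1 adhesion genes and KMT2A lie on its long arm (11q).

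Among the strong loops named below, 3 had a core CTCF-type motif (CCA, 2 unspecified bases, AG, 2 unspecified bases and GGC), pointing inward at both anchors. They are shown because they give the sequence at the feet of loops whose strengths are compared across the 4 lines. Each run is 52 bases of GRCh37 (hg19), written 5′ to 3′ on the strand that carries the motif, with the motif in capitals.
ME3 to PRSS23, first anchor (chr11:86167299-86167350, plus strand): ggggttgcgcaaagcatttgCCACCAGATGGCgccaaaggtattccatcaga
ME3 to PRSS23, second anchor (chr11:86529684-86529735, minus strand): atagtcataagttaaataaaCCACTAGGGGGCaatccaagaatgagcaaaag
MICAL2, first anchor (chr11:12069072-12069123, plus strand): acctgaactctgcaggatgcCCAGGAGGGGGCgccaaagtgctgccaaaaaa
MICAL2, second anchor (chr11:12303552-12303603, minus strand): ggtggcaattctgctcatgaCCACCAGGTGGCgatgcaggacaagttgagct
TP53I11 to PRDM11, first anchor (chr11:44958157-44958208, plus strand): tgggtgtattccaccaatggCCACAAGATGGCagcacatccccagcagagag
TP53I11 to PRDM11, second anchor (chr11:45124819-45124870, minus strand): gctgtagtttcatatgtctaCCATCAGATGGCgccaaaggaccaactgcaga
Other named loops had the motif pointing inward at a single anchor, among them CD82 to TSPAN18 and the SNX19 loop. The strong loops MTMR2 to CCDC82 and JRKL, STIM1, PDHX to SLC1A2 and NEAT1 to MALAT1 had no inward match. Of the loops with a single inward match, 2 strong 11p loops, at APIP and at ABTB2, are shown.
APIP, first anchor (chr11:34607932-34607983, plus strand): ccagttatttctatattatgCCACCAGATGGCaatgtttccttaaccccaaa
ABTB2, second anchor (chr11:34381186-34381237, minus strand): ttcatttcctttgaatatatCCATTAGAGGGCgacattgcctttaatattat

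The motif, searched on both strands, was more frequent at strong loops than along the chromosome. It was found in 13.0% of 26218 consecutive 5 kb tiles of chromosome 11 and in 17.3% of the 6965 listed anchors. Among the anchors of the 200 strongest local maxima, meaning pairs with no stronger pair within 10 kb at both anchors, it was found in 39.0% for H4 against 38.1% for H4 88-1, and in 39.0% for 42MGBA against 35.4% for 42MGBA 53-1. Motifs pointing inward outnumbered motifs pointing outward, with 577 against 256 of all 32767 pairs and 88 against 12 of the 1355 local maxima. Of the 100 strongest local maxima by the mean of the 4 lists, 13 had inward motifs and 1 had outward motifs. A match is a description of letters in an anchor, and binding was not measured.

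Fewer chromosome 11 loops were listed in 42MGBA 53-1 than in any other line. The H4 list held 18592 chromosome 11 pairs, the H4 88-1 list 19022, the 42MGBA list 19677 and the 42MGBA 53-1 list 11534. In the first 3 lists the numbers lay within a narrow range, and the last list stood apart. Both arms had fewer pairs in 42MGBA 53-1 than in 42MGBA, and the drop was proportionally larger on 11p, which was separated from 11q at the centromeric gap of the reference (chr11:51594206-54694205), a split chosen after the values were seen. On 11p there were 9667 pairs in H4 against 9214 in H4 88-1 and 6096 in 42MGBA against 1622 in 42MGBA 53-1. On 11q there were 8925, 9808, 13581 and 9912 pairs in the same order. The number in 42MGBA 53-1 was thus 0.266 times that in 42MGBA on 11p and 0.730 times on 11q. Since each list has the same length, these numbers are shares of a list and not amounts of chromatin contact.

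Loop strength, the deposited DeepLoop value, was compared as the log2 ratio of the STAG2-corrected over the STAG2-mutant line, with a pair absent from a list given the lowest strength of that list. Those lowest strengths were 4.14 in H4 against 4.44 in H4 88-1 and 4.49 in 42MGBA against 4.28 in 42MGBA 53-1, so the ratio of an absent pair is bounded by them. Its sign can also run against its absence. An H4 pair of strength under 4.44 that is absent from H4 88-1 has a ratio above 0. A 42MGBA 53-1 pair under 4.49 that is absent from 42MGBA has a ratio below 0. In the 42MGBA pair the median log2 ratio was -0.22 on chromosome 11 and -0.07 over the rest of the genome. The lower strengths were seen on both arms, with a median of -0.31 on 11p and -0.19 on 11q. In the H4 pair the median was 0.11 on chromosome 11 and 0.09 elsewhere, with 0.10 on 11p and 0.13 on 11q. Of 23 chromosomes, chromosome 11 had the lowest median of the 42MGBA pair, followed by chromosome 6 with -0.18, and the 15th lowest of the H4 pair.

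The same order held without any value assigned to absent pairs. Among pairs listed in both 42MGBA and 42MGBA 53-1, the median log2 ratio was -0.52 for 1364 pairs on 11p, -0.21 for 7973 pairs on 11q and -0.08 over the rest of the genome. Of the 1364 pairs on 11p, 1296 were weaker and 68 stronger in 42MGBA 53-1. Among pairs listed in both H4 and H4 88-1, the medians were 0.12 on 11p, 0.12 on 11q and 0.09 elsewhere.

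The share of the STAG2-mutant list that was also listed after correction, a measure added after the values were seen, separated the arms further. In the 42MGBA pair, 22.4% of the 11p pairs and 58.7% of the 11q pairs of the 42MGBA list were also listed in 42MGBA 53-1, against 69.5% over the rest of the genome. Thus 4732 of 6096 pairs on 11p and 5608 of 13581 on 11q were absent from the 42MGBA 53-1 list, where 32% of all 42MGBA pairs were absent. In the H4 pair the share was 70.9% on 11p, 73.1% on 11q and 71.0% elsewhere, with 28.9% of all H4 pairs absent from H4 88-1. By this share chromosome 11, with 47.5%, was again the lowest of 23 chromosomes in the 42MGBA pair, and it was the 13th lowest in the H4 pair. Chromosomes 6, 22 and 13 followed closely in the 42MGBA pair, with 51.0%, 51.6% and 51.9%. Pairs listed in 42MGBA 53-1 but not in 42MGBA numbered 258 on 11p and 1939 on 11q, which was 15.9% and 19.6% of the 42MGBA 53-1 pairs of each arm, where 32% of all 42MGBA 53-1 pairs were absent from 42MGBA.

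Differences past 1.5-fold ran the same way. In the 42MGBA pair 2331 chromosome 11 pairs, 10.7%, were lower in 42MGBA 53-1 by more than 1.5-fold, where 3.4% of all pairs were, and 20 were higher, where 0.485% of all pairs were. On 11p 1258 pairs were lower and 0 were higher. The 20 higher pairs were all on 11q. In the H4 pair 95 chromosome 11 pairs, 0.392%, were lower in H4 88-1, where 0.722% of all pairs were, and 819 pairs, 3.38%, were higher, where 2.92% of all pairs were. These counts come from the contrast that the choice of chromosome used, and neighbouring pairs of one loop count separately.

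**Figure D1:**
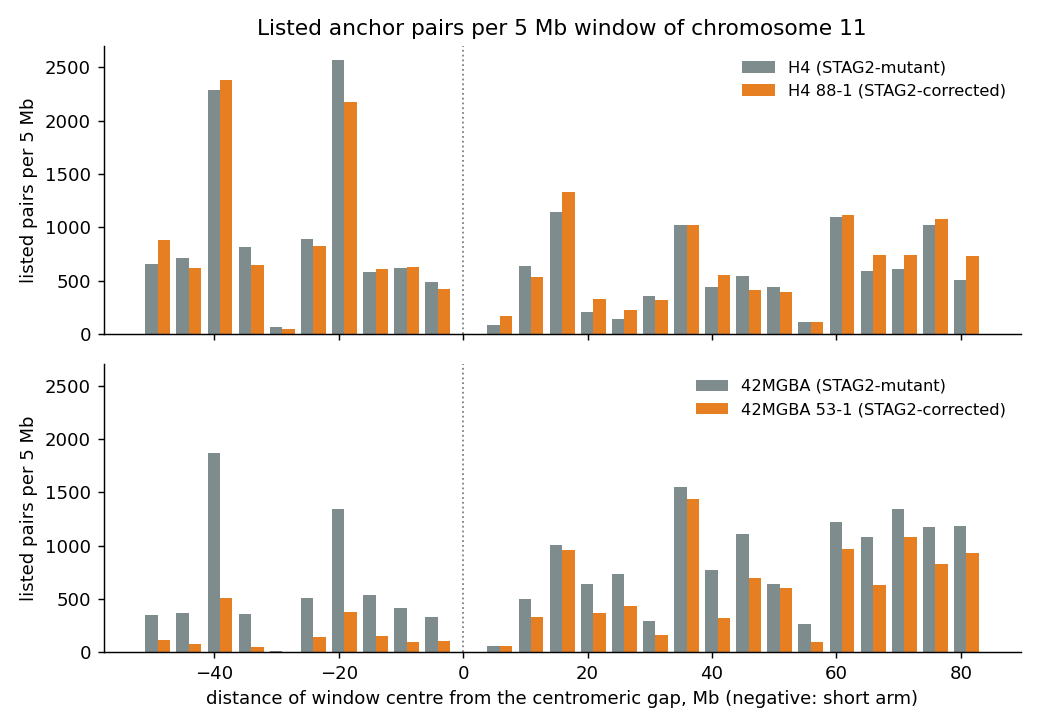
Number of listed anchor pairs (vertical axis) in each 5 Mb window of chromosome 11 against the distance of the window centre from the centromeric gap in Mb (horizontal axis), with grey bars for the STAG2-mutant line and orange bars for the STAG2-corrected line of the H4 pair (top) and the 42MGBA pair (bottom). On the short arm the orange bars of 42MGBA 53-1 are far below the grey bars in each window, as in the window 10 to 15 Mb with 1870 and 508 pairs, whereas the bars of the H4 pair stay close.

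At the scale of 5 Mb the lower strengths of 42MGBA 53-1 were found along the whole chromosome and not confined to a few windows. In fixed 5 Mb windows of the first anchor, 24 windows held at least 200 pairs of the 42MGBA pair, and in 24 of 24 the median was below -0.08, the median of all 414 windows of the genome. The lowest of all genome windows was 0 to 5 Mb, which holds the IGF2 and H19 region, with a median log2 ratio of -0.40. It was followed on chromosome 11 by 40 to 45 Mb with -0.39 and 15 to 20 Mb with -0.36. The window 0 to 5 Mb had 351 pairs in 42MGBA and 117 in 42MGBA 53-1, and 116 of those 117 were in both lists and each of the 116 was weaker in 42MGBA 53-1. The highest 42MGBA medians were on 11q, with -0.10 at 100 to 105 Mb, -0.11 at 65 to 70 Mb and -0.11 at 85 to 90 Mb, and these remained below the genome median.

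In the H4 pair 23 windows held at least 200 pairs, and 10 of them were below the genome median of 0.10. The highest were 0 to 5 Mb with 0.25, 70 to 75 Mb with 0.24 and 40 to 45 Mb with 0.19. The lowest were 95 to 100 Mb with -0.04, 30 to 35 Mb with 0.03 and 80 to 85 Mb with 0.04. Thus 0 to 5 Mb and 40 to 45 Mb were among the 3 highest windows of the H4 pair and among the 3 lowest of the 42MGBA pair. At 0 to 5 Mb the pairs of lines drew on partly different loci. Of 990 pairs in H4, 473 began at 1 to 2 Mb and 283 at 2 to 3 Mb, against 65 and 57 of 352 in 42MGBA, where 138 began at 3 to 4 Mb and 92 at 4 to 5 Mb. The medians were positive in H4 and negative in 42MGBA in 22 of 23 windows, although 7 of the 23 H4 medians became negative when the H4 and H4 88-1 lists were scaled to the same genome-wide median. Across the 23 windows the medians of the pairs of lines had a Pearson r of -0.01 and a Spearman correlation of 0.07, given as a description because windows of one list share libraries. By arm, r was -0.50 over 9 windows of 11p and 0.18 over 14 windows of 11q. With pairs listed in both lines only, r was 0.35, and with the 100000 strongest pairs of either line it was 0.46. Those 2 settings rest on fewer windows, as the 42MGBA pair kept 15 and 14. With pairs listed in both lines, the windows of 11p left were 10 to 15 Mb and 30 to 35 Mb, so these r values are not of the same windows.

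**Figure D2:**
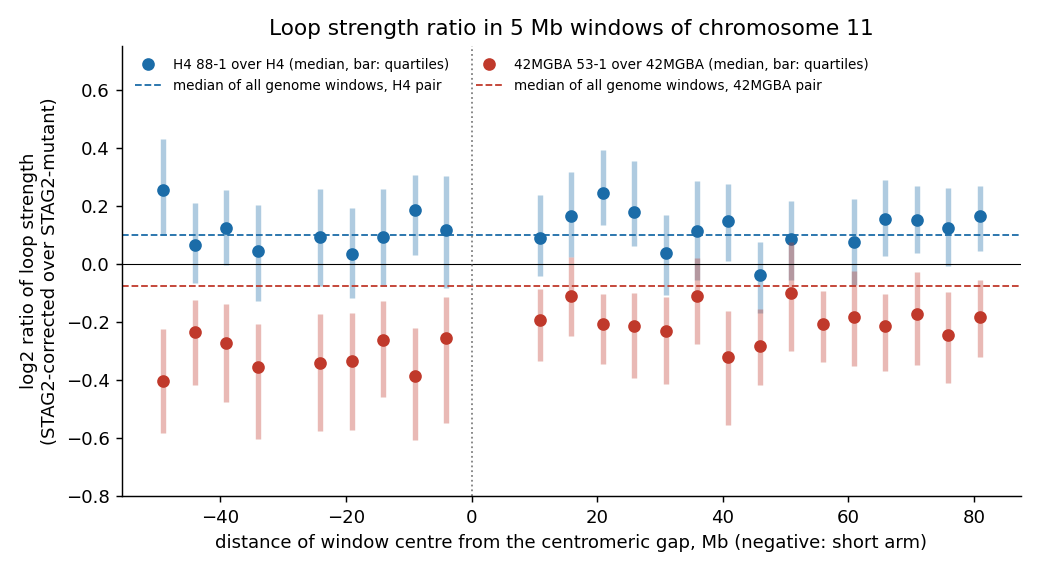
Median log2 ratio of loop strength, STAG2-corrected over STAG2-mutant (vertical axis), in 5 Mb windows with at least 200 pairs, against distance from the centromeric gap in Mb; points are medians, bars run from the first to the last quartile of pairs in a window, and dashed lines are the medians of all genome windows. The red points of the 42MGBA pair lie below their dashed line of -0.08 at every position and are lowest on the short arm, and the blue points of the H4 pair scatter about 0.10.

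The share of pairs also listed after correction showed where the arms parted. In the 9 windows of 11p with at least 200 pairs in 42MGBA it ranged from 10.8% at 5 to 10 Mb to 33.0% at 0 to 5 Mb. In the 15 windows of 11q it ranged from 23.8% at 105 to 110 Mb to 72.1% at 85 to 90 Mb, and 14 of the 15 were above the highest window of 11p. Among 384 genome windows the 20 lowest included 9 of the 9 windows of 11p and 1 window of 11q. In the H4 pair the 9 windows of 11p ranged from 53.1% to 82.5% and the 13 windows of 11q from 62.1% to 89.0%, and none was among the 20 lowest of the genome. The median over genome windows was 69.9% for 42MGBA and 72.2% for H4.

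**Figure D3:**
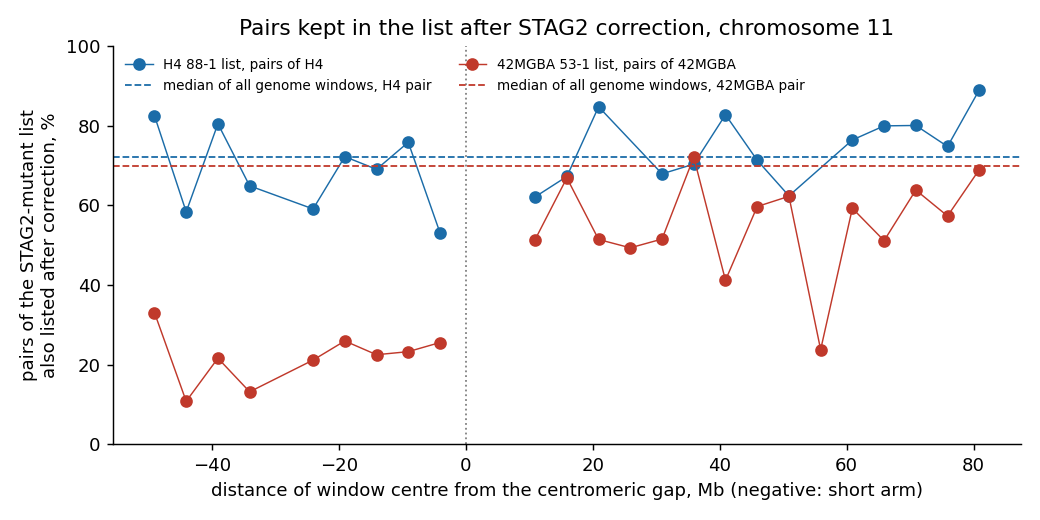
Percent of the pairs of the STAG2-mutant list that were also in the STAG2-corrected list (vertical axis) in 5 Mb windows with at least 200 such pairs, against distance from the centromeric gap in Mb, with lines joining the windows of an arm and dashed lines at the medians of all genome windows, 72.2% for H4 and 69.9% for 42MGBA. The 42MGBA points on the short arm run from 10.8% to 33.0%, below each H4 point, and on the long arm they range from 23.8% to 72.1%.

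The share on 11p was below that of the rest of the genome in each class of starting strength under 12. Among 42MGBA pairs with a strength under 5, 4.91% of 1977 pairs on 11p were also listed in 42MGBA 53-1, against 28.2% on 11q and 44.4% over the rest of the genome. At a strength of 5 to 6 the shares were 11.5%, 50.3% and 66.4%. At 6 to 8 they were 34.1%, 79.7% and 88.2%, and at 8 to 12 they were 80.3%, 96.0% and 98.2%. At a strength of 12 and more each of the 63 pairs on 11p was still listed, with a median log2 ratio of -0.71 against -0.41 on 11q and -0.22 elsewhere. In the H4 pair the 3 regions differed by at most 6.35 percentage points in any class.

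**Figure D4:**
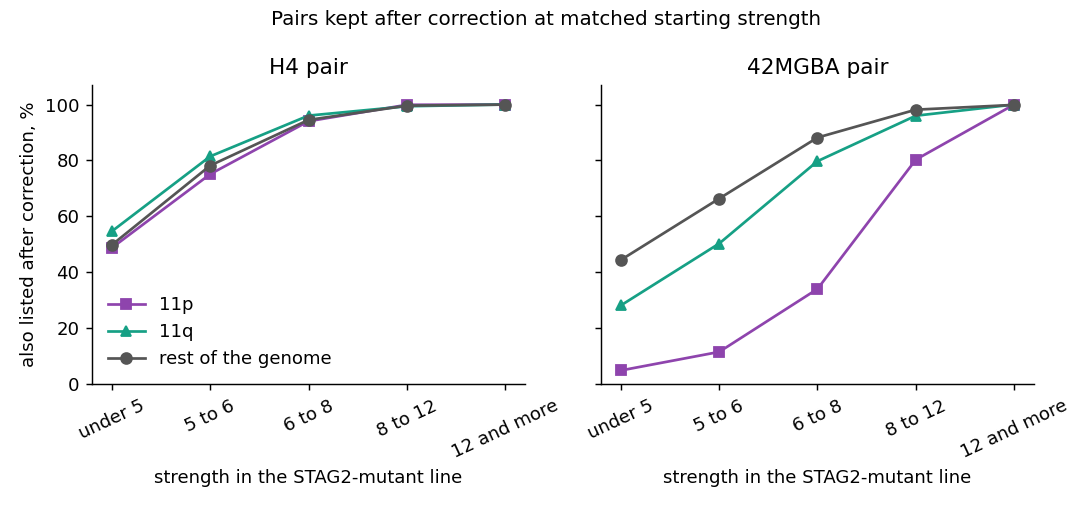
Percent of pairs of the STAG2-mutant list also listed after correction (vertical axis) by strength in the STAG2-mutant line (horizontal axis, DeepLoop value) for 11p (squares), 11q (triangles) and the rest of the genome (circles), with the H4 pair on the left and the 42MGBA pair on the right. The 3 curves overlap in H4, whereas in 42MGBA the 11p curve starts at 4.91% and reaches 80.3% at a strength of 8 to 12, below the 98.2% of the rest of the genome.

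Long loops on 11p were the most often absent from 42MGBA 53-1. Of 11p pairs listed in 42MGBA, 31.4% were also listed in 42MGBA 53-1 at 100 to 200 kb, 22.5% at 200 to 400 kb and 9.04% at 400 to 800 kb, and 0 of 165 were at 800 kb or more. On 11q the shares were 70.2%, 61.3%, 45.6% and 28.5% in the same classes, and over the rest of the genome they were 77.8%, 72.9%, 63.0% and 52.4%. On 11p 42MGBA pairs had a median distance of 227 kb between anchors and 42MGBA 53-1 pairs one of 164 kb, and on 11q the distances were 294 kb and 239 kb. The distances of H4 and H4 88-1 pairs were 354 kb and 334 kb on 11p and 297 kb and 274 kb on 11q. STAG2-corrected lists thus held the shorter loops on both arms of both pairs, as they did over the whole genome. The whole lists had medians of 348 kb in H4 against 312 kb in H4 88-1 and 307 kb in 42MGBA against 257 kb in 42MGBA 53-1. By 5 Mb window, the STAG2-mutant median was the larger in 15 of 23 windows of the H4 pair and 23 of 24 of the 42MGBA pair. The H4 log2 ratio also depended on size, with a chromosome 11 median of 0.17 at 100 to 200 kb and -0.04 at 800 kb and more. The rest of the genome had 0.17 and -0.04 in the same classes.

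GC content moved with the H4 medians. It ranged from 36.4% to 50.4% over the windows, and its Spearman correlation with the window medians was 0.62 over 23 windows in the H4 pair and 0.18 over 24 windows in the 42MGBA pair. Its part in the H4 profile was not tested.

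A minority of pairs was listed in all 4 lines, as over the rest of the genome. Of the 32767 pairs 5520, or 16.8%, were in all 4 lists, against 19.4% over the rest of the genome. The share was 6.94% on 11p and 24.2% on 11q. A pair found in each list except that of 42MGBA 53-1 made up 11.2% of pairs on chromosome 11 and 4.08% over the rest of the genome, and 2650 of its 3662 instances on chromosome 11 were on 11p. Pairs in both STAG2-mutant lists and in neither corrected list numbered 350 on 11p, or 2.51% of its pairs, and 581 on 11q, or 3.08%, against 1.49% over the rest of the genome. Pairs in both corrected lists alone numbered 6 on 11p, or 0.0431%, and 286 on 11q, or 1.52%, against 1.36% elsewhere.

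The strongest chromosome 11 loop by the mean of the 4 lists joined chr11:130302013-130306571, which holds no protein-coding gene, to chr11:130732102-130737034, which overlaps an exon of SNX19, a sorting nexin of endosomal membranes. Its strength was 28.1 in H4 against 29.2 in H4 88-1 and 38.3 in 42MGBA against 27.5 in 42MGBA 53-1, and it was the strongest pair of the whole 42MGBA list. It was alike in the H4 pair and 1.39-fold higher in 42MGBA than in 42MGBA 53-1.

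Other long-arm loops had the same form. The loop whose anchors are printed above from an exon of ME3, a mitochondrial malic enzyme, to an intron of PRSS23, a serine protease, had strengths of 19.8 in H4 against 17.2 in H4 88-1 and 21.8 in 42MGBA against 16.4 in 42MGBA 53-1. The loop from MTMR2, a phosphoinositide phosphatase, to the shared promoter region of CCDC82 and JRKL (chr11:95570488-95575419 and chr11:96120624-96125637) had strengths of 18.1, 17.6, 22.9 and 15.03. The ME3 and MTMR2 loops were 1.33-fold and 1.52-fold lower in 42MGBA 53-1 than in 42MGBA. In the H4 pair the ME3 loop was 1.15-fold lower in H4 88-1, and the MTMR2 loop was alike, with a 1.03-fold difference.

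Strong short-arm loops differed in either direction in the H4 pair and were weaker in 42MGBA 53-1 than in 42MGBA. The MICAL2 loop shown above, with its second anchor inside this gene for an actin-oxidizing enzyme, had strengths of 21.9 in H4 against 24.8 in H4 88-1 and 16.7 in 42MGBA against 10.9 in 42MGBA 53-1. The loop to an exon of APIP, an enzyme of methionine salvage (chr11:34606578-34611409 and chr11:34907975-34912745), had strengths of 22.9, 29.7, 15.1 and 8.02. The loop within ABTB2, which has its start at the second anchor (chr11:34379345-34384166), had strengths of 21.6, 20.2, 15.7 and 7.49. In each, 42MGBA 53-1 was the lowest of the 4 lines, by 1.54-fold, 1.88-fold and 2.10-fold below 42MGBA. The loop of TP53I11 with PRDM11, a gene of the PR domain family, had strengths of 17.8, 23.3, 14.5 and 9.78, and was likewise lowest in 42MGBA 53-1.

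Other short-arm loops of membrane protein genes ranged from small to large differences in the 42MGBA pair. The loop joining exons of 2 tetraspanin genes, CD82 and TSPAN18 (chr11:44640830-44645298 and chr11:44926576-44931587), had strengths of 13.1 in H4 against 14.9 in H4 88-1 and 10.9 in 42MGBA against 4.35 in 42MGBA 53-1, and was 2.51-fold lower in 42MGBA 53-1. It was picked as the pair with the lowest ratio in its 42MGBA window, so that direction was set by the choice. The loop within STIM1, the calcium sensor of the endoplasmic reticulum, was the strongest 11p pair in 42MGBA and differed less, with strengths of 13.6, 11.1, 17.1 and 12.6. The loop from PDHX, a pyruvate dehydrogenase complex component, to an exon of SLC1A2, the main astrocytic glutamate transporter, had strengths of 26.2, 22.3, 14.6 and 5.51, and a nearby loop from PDHX to the start of CD44, the hyaluronan receptor, was absent in H4 and had 7.49, 6.36 and 7.84 in the other lines. That CD44 loop had the highest ratio of all 11p pairs listed in both 42MGBA and 42MGBA 53-1, and the lowest belonged to a pair without a protein-coding gene at either anchor (chr11:33383106-33387712 and chr11:33708774-33713631), with 12.2 in 42MGBA and 4.38 in 42MGBA 53-1.

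**Figure D5:**
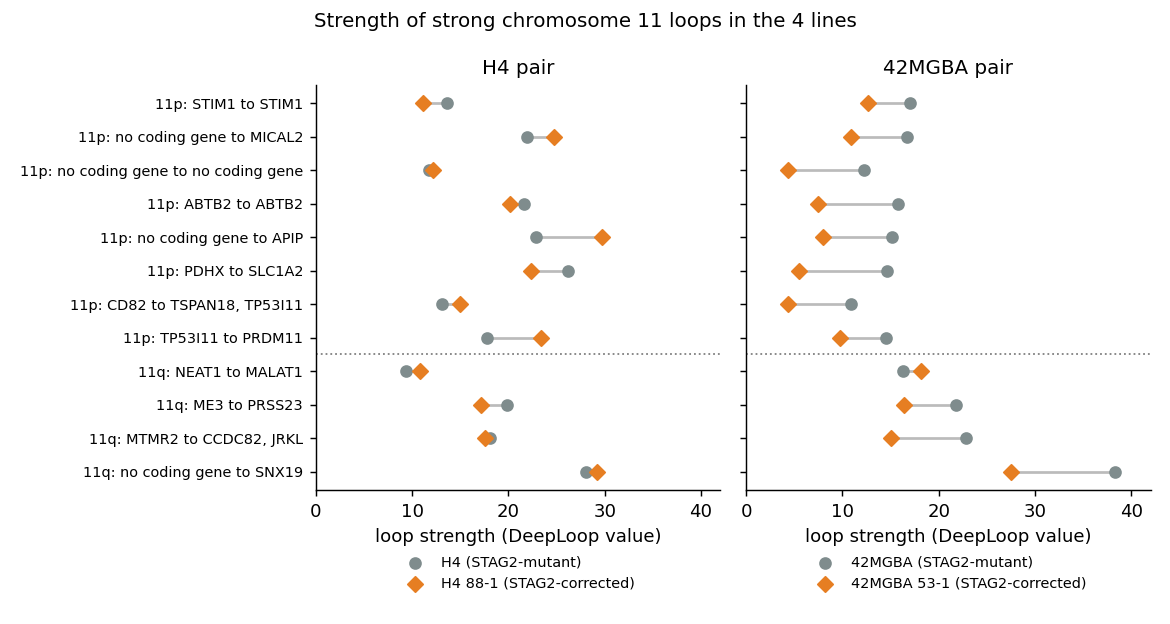
Loop strength (horizontal axis, DeepLoop value) of 12 strong chromosome 11 loops in the H4 pair (left) and the 42MGBA pair (right), named by the protein-coding genes that overlap their anchors, or by NEAT1 and MALAT1, with grey circles for the STAG2-mutant and orange diamonds for the STAG2-corrected line and a dotted line between the arms. In the right panel each of the 8 short-arm diamonds lies left of its circle, as for PDHX to SLC1A2 at 5.51 and 14.6, and NEAT1 to MALAT1 on 11q is the one loop with its diamond to the right. CD82 to TSPAN18 and the pair with no coding gene at either anchor were picked for a low 42MGBA ratio, so their direction was set by that choice. NEAT1 to MALAT1 was picked for its strength in 42MGBA 53-1, and STIM1, ABTB2 and PDHX to SLC1A2 for their strength in 42MGBA.

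A few loops did not share the lower strength in 42MGBA 53-1. The loop between the nuclear long non-coding RNA genes NEAT1 and MALAT1 (chr11:65190641-65195609 and chr11:65271872-65276874) had strengths of 9.41 in H4 against 10.8 in H4 88-1 and 16.3 in 42MGBA against 18.1 in 42MGBA 53-1. The loop to an exon of MMP20, a matrix metalloproteinase of tooth enamel (chr11:102363308-102367925 and chr11:102479005-102483916), had strengths of 4.69, 6.89, 5.11 and 9.50 and was higher in both corrected lines. The loop from PICALM, a clathrin adaptor, to the start of EED, a core subunit of Polycomb repressive complex 2, had strengths of 4.77, 7.14, 4.65 and 6.89 and was likewise higher in both. The MMP20 and PICALM loops were picked as the pair with the highest ratio in their 42MGBA window, so their direction in 42MGBA was set by that choice. The NEAT1 to MALAT1 loop was picked among the strongest 11q loops of 42MGBA 53-1, a choice that favours a high value in that line.

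A loop that was lower in both corrected lines joined 2 anchors without a protein-coding gene on 11q (chr11:81355659-81360476 and chr11:81938408-81943068). Its strengths were 10.5 in H4 against 4.48 in H4 88-1 and 12.8 in 42MGBA against 5.91 in 42MGBA 53-1, a log2 ratio of -1.23 and of -1.12. Opposite ratios were seen at IGF2, a fetal growth factor gene, where the loop to one of its exons (chr11:2055290-2060172 and chr11:2165460-2170462) had 7.20 in H4 against 15.1 in H4 88-1 and 7.37 in 42MGBA against 5.16 in 42MGBA 53-1. A loop within SHANK2, a scaffold gene of excitatory synapses, had 4.78, 9.39, 9.32 and 6.65, again higher in H4 88-1 and lower in 42MGBA 53-1. Each loop of this paragraph was picked as the most extreme pair of its H4 window, so its direction in the H4 pair was set by that choice.

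The remaining loops taken from the windows with the highest or lowest medians were likewise each the most extreme pair in the direction of their window. Their direction in the pair of lines of that window was therefore set by the choice. At the start of the olfactory receptor gene OR51E1 (first anchor chr11:4664264-4668238) the strengths were 8.78 in H4 against 9.51 in H4 88-1 and 9.80 in 42MGBA against 4.30 in 42MGBA 53-1. A loop into NAV2, a neuron navigator gene (second anchor chr11:19565862-19570852), had 9.70, 11.2, 9.84 and 4.33 in the same order. Both were far weaker in 42MGBA 53-1 and slightly stronger in H4 88-1. Within the MTMR2 to CCDC82 region a pair beside the one given above (first anchor chr11:95580348-95585230) was weaker in both corrected lines, with 10.3, 6.83, 10.5 and 6.14. A pair from PDHX to an exon of SLC1A2 (chr11:34961315-34966138 and chr11:35391968-35396784) had 7.67 in H4 and 4.54 in H4 88-1 and was in neither 42MGBA list. A short loop near FOSL1, a subunit gene of the AP-1 factor (chr11:65657964-65662905 and chr11:65682584-65687444), had 4.49 in 42MGBA and 6.71 in 42MGBA 53-1 and was in neither H4 list.

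Genes were assigned to a pair when the start of any of their annotated transcripts lay within 3 kb of an anchor, so that an anchor can lie inside a gene and far from its first start, and such a start is called a gene start here. For 42MGBA 382 protein-coding genes of chromosome 11 had at least 5 pairs, and the median log2 ratio of 347 was below 0, with 95 of 97 genes on 11p and 252 of 285 on 11q. For H4 426 genes had at least 5 pairs, and the median of 321 was above 0. These counts also carry the shift between whole lists. Over the rest of the genome the median of pairs was -0.07 in 42MGBA and 0.09 in H4. The counts depend as well on the values given to absent pairs. DRD2, with 0 pairs in 42MGBA and 5 in 42MGBA 53-1, still had a median of -0.01. Pairs at a gene start and pairs away from one differed little on 11p, with 42MGBA medians of -0.31 and -0.30, although 25.9% of the former and 18.4% of the latter were also listed in 42MGBA 53-1.

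Of the gene lists, the imprinted 11p15 genes had the medians farthest apart between the pairs of lines. Of the 11 genes of the list 8 had pairs. In the H4 pair the median log2 ratio over 286 pairs was 0.34, against 0.10 over all 11p pairs. There 5 of 5 genes were above 0, as were 105 of 140 genes of the whole arm, and 98.5% of the H4 pairs were also listed in H4 88-1. In the 42MGBA pair the median over 69 pairs was -0.38, against -0.31 over all 11p pairs, and 4 of 4 genes were below 0, as were 95 of 97 genes of the whole arm. The share of their 42MGBA pairs also listed in 42MGBA 53-1 was 24.6%, close to the 22.4% of 11p. IGF2 had a median of 0.43 in H4 and -0.33 in 42MGBA, and H19, the imprinted non-coding RNA gene beside it, had 0.35 and -0.32. CDKN1C, the cell cycle inhibitor p57, had 0.25 and -0.61, and SLC22A18, a transporter gene of the same domain, had 0.42 and -0.48. The strongest loop at H19 had strengths of 14.5 in H4 against 19.9 in H4 88-1 and 8.27 in 42MGBA against 5.32 in 42MGBA 53-1.

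Genes of cancer and growth control had a median of 0.14 over 589 pairs in H4 and -0.22 over 610 pairs in 42MGBA, close to the chromosome as a whole. Of its genes with enough 42MGBA pairs 8 of 8 were below 0, where 347 of 382 genes of the whole chromosome were. CCND1, which encodes cyclin D1, had a median of 0.25 in H4 and -0.41 in 42MGBA, and its strongest loop had 11.8, 12.3, 10.5 and 7.66 in the 4 lines. FGF19, a fibroblast growth factor gene, had 0.36 and -0.29. The apoptosis inhibitor genes BIRC2 and BIRC3 had 0.29 and 0.15 in H4 and -0.11 and -0.10 in 42MGBA. KMT2A, a histone methyltransferase gene, had 0.12 and -0.21. WEE1, a kinase that restrains entry into mitosis, was below 0 in both pairs, with -0.13 and -0.16. CD44 had 62 pairs in H4 against 71 in H4 88-1 and 197 in 42MGBA against 69 in 42MGBA 53-1.

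Developmental transcription factor genes had a median of 0.12 over 756 pairs in H4 and -0.17 over 418 pairs in 42MGBA. Of its genes 12 of 13 were below 0 in 42MGBA, as were 347 of 382 genes of the whole chromosome. The ETS factor gene ELF5 had 106 pairs in H4 against 77 in H4 88-1 and 7 in 42MGBA against 0 in 42MGBA 53-1. Its H4 median was 0.32, with 83 pairs above 0 and 26 below, so more pairs were above 0 than the 77 listed in H4 88-1. Some of the pairs above 0 were thus absent from H4 88-1 and took its lowest strength, 4.44. The strongest ELF5 loop had 11.8 in H4 against 17.2 in H4 88-1. SOX6, an SRY-related factor gene, had 142, 82, 0 and 0 pairs and an H4 median of -0.14. ZBTB16, a zinc finger repressor gene on 11q, had 36, 54, 38 and 0 pairs. BMAL1, a core gene of the circadian clock, had a median of 0.21 in H4 and -0.27 in 42MGBA, and LMO2, a LIM domain regulator of blood formation, had 0.09 and -0.48. TEAD1, the DNA-binding partner of YAP, had 0.10 and -0.22. PKNOX2, a TALE homeodomain gene, was the exception above 0 in 42MGBA, with medians of 0.31 in H4 and 0.10 in 42MGBA and 1, 31, 3 and 24 pairs in the 4 lines.

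Neural adhesion, synapse and channel genes had a median of -0.01 over 999 pairs in H4 and -0.24 over 564 pairs in 42MGBA, and 24.1% of their 42MGBA pairs were also listed in 42MGBA 53-1. That share was near the 22.4% of all 11p pairs and the 25.9% of 11p pairs at a gene start, and much of the list came from SLC1A2 and BDNF, both on 11p. BDNF, a neurotrophin gene, had 275 pairs in H4 against 128 in H4 88-1 and 89 in 42MGBA against 0 in 42MGBA 53-1. SLC1A2 had 509, 400, 248 and 38 pairs. NCAM1, the neural cell adhesion molecule gene, had 11, 28, 41 and 6 pairs, and KIRREL3, a synaptic adhesion gene, had 0, 6, 13 and 0. LRRC4C, a netrin-G ligand gene, had 19 pairs in H4 against 0 in H4 88-1 and 2 in 42MGBA against 0 in 42MGBA 53-1. CADM1, an adhesion gene of the immunoglobulin family, was listed in the corrected lines alone, with 6 pairs in H4 88-1 and 8 in 42MGBA 53-1. NTM, a neural adhesion gene, had medians of 0.22 in H4 and -0.06 in 42MGBA.

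The matrix metalloproteinase genes of 11q22 had medians of 0.04 over 105 pairs in H4 and 0.02 over 148 pairs in 42MGBA. MMP20 had 137 of the 148 pairs, with a 42MGBA median of 0.05, whereas MMP1, the interstitial collagenase gene, had -0.25 in both pairs of lines and 18, 4, 6 and 0 listed pairs. The beta-globin genes had 0 pairs in all lists. The lists share neighbouring anchors, and no list was tested against the rest of the chromosome.

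At a finer scale, in 1 Mb stretches with at least 50 pairs in 42MGBA, the share also listed in 42MGBA 53-1 had a median of 23.9% over 25 stretches of 11p and 54.0% over 50 stretches of 11q. It ranged from 0% to 52.9% on 11p and from 1.39% to 93.8% on 11q. At 31 to 32 Mb, by DCDC1, a doublecortin domain gene, 0 of 82 pairs of 42MGBA were in 42MGBA 53-1, whereas 62.9% of 194 H4 pairs were in H4 88-1. At 45 to 46 Mb, by PRDM11, the share was 6.98% in the 42MGBA pair and 91.0% in the H4 pair. The highest 11p stretches were 47 to 48 Mb, with a loop at the phosphatase gene PTPRJ of strength 10.3 in 42MGBA and 10.3 in 42MGBA 53-1, and 36 to 37 Mb, with a loop at COMMD9 of 12.9 and 9.10. The PTPRJ loop was thus of near-equal strength in the 42MGBA pair, and the COMMD9 loop was weaker in 42MGBA 53-1.

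On 11q low stretches were scattered among high ones. At 126 to 127 Mb, in KIRREL3, 1 of 72 pairs of 42MGBA was in 42MGBA 53-1, and at 71 to 72 Mb, where a loop joins exons of RNF121 and CLPB, the share was 7.77%. At 100 to 101 Mb the share was 93.8%, and at 120 to 121 Mb it was 89.1%, with a loop from TRIM29 to an exon of POU2F3, a POU-domain factor gene of tuft cells, of strength 11.7 in 42MGBA and 10.7 in 42MGBA 53-1. The strengths were not lower throughout these 2 stretches, as their median log2 ratios were 0.0007 and 0.03. They were the 2 of 50 stretches of 11q with a median above 0, and 0 of 25 on 11p had one. Pairs listed in 42MGBA 53-1 but not in 42MGBA were most numerous on 11q, with 242 at 86 to 87 Mb by PRSS23 and 181 at 65 to 66 Mb, where their median size was 37.7 kb. They made up 24.4% and 24.9% of the 42MGBA 53-1 pairs there, below the 32% of that whole list. Such pairs numbered 0 to 104 in the 5 Mb windows of 11p and 5 to 327 in those of 11q.

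Whether local maxima with inward motifs were more often listed in 42MGBA 53-1 depended on the motif and the arm. Of 88 local maxima of 11p in both lists, 6 had inward motifs and 0 outward, and of 213 absent from 42MGBA 53-1, 14 had inward motifs and 2 outward. On 11q 31 of 345 in both lists and 9 of 211 absent from 42MGBA 53-1 had inward motifs. Inward shares were thus 6.82% and 6.57% on 11p and 8.99% and 4.27% on 11q. With a looser motif, in which the A after the first CC may be any base, they were 21.6% and 13.1% on 11p and 16.8% and 16.1% on 11q, so the arm with the wider gap changed. Counting only local maxima, 29.2% of those on 11p and 62.1% of those on 11q in the 42MGBA list were in 42MGBA 53-1, against 67.2% elsewhere. The arms thus differed when each loop was represented by its strongest pair.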

How the data were processed

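Hi-C libraries were made with the Arima kit from 2 biological replicates of each of 4 cell lines. The authors trimmed and aligned the reads to hg19 with Bowtie, removed duplicates, assigned the contacts to 5 kb anchor pairs, corrected biases with HiCorr and denoised the result with DeepLoop. The deposited files hold, for the 300000 strongest pairs of each line with replicates pooled, a signal called loop strength. Read counts per loop are not in them, so depth and counting error are unknown. HiCorr and DeepLoop smooth neighbouring pixels, so neighbouring pairs are not independent.

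The 4 lists were joined by anchor pair. The log2 ratio of strength was taken with absent values set to the lowest of the list, and medians over 5 Mb windows of hg19 with at least 200 pairs were computed in Python 3.11.15 with pandas 2.3.3 and NumPy 2.4.6. Genes were from GENCODE release 44 lifted to GRCh37, with the start of any annotated transcript within 3 kb of an anchor. Named loops were the most extreme pair listed in both lines in the 3 highest and 3 lowest windows of each pair of lines, and the 5 strongest loops more than 50 kb apart. Genes of the lists with at least 5 pairs were eligible for naming. The strongest and most extreme loops of each arm, the arm split and the shares also listed were added after the values were seen. All members and gene lists were chosen with earlier results of these data known. The 12 RNA-seq samples were not analysed here.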

Additional observations from a re-analysis of the deposited data

Results flagged for a closer look

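The median log2 ratio of loop strength, STAG2-corrected over STAG2-mutant, had opposite signs in the H4 and the 42MGBA pair on the whole chromosome and on each arm. The 42MGBA median minus the H4 median was -0.33 on chromosome 11, from 0.11 in H4 and -0.22 in 42MGBA. On 11p it was -0.41, from 0.10 and -0.31, and on 11q it was -0.32, from 0.13 and -0.19. With 1 list per line these differences were not tested. The sign also differed between the pairs over the rest of the genome, at 0.09 and -0.07.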

How the results depend on the processing

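No paired analysis was possible because the authors pooled the replicates of each line into 1 list, and no replicate could be left out for the same reason. The 42MGBA medians of all windows stayed below 0 under each setting that gave window values: 15 of 15 with pairs listed in both lines, 14 of 14 with the 100000 strongest pairs of either line, and 24 of 24 with the other settings. In H4 the number of windows below 0 went from 1 of 23 to 7 of 23 with lists scaled to the same median, 10 of 23 with quantile normalization and 8 of 23 with adjustment for loop size, and the chromosome 11 median went from 0.11 to 0.026, 0.018 and 0.014. Those 3 settings subtract the genome-wide shift between the lists by construction.

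In 42MGBA the chromosome 11 median was -0.14 with lists scaled and -0.14 with quantile normalization. With absent values at 0.5 of the lowest value it was -0.71, and chromosome 11, 11p and 11q lay -0.65, -1.13 and -0.30 from the rest of the genome. With the 100000 strongest pairs of either line it was -0.43, and the differences were -0.34, -0.57 and -0.25. With pairs listed in both lines 11p lay -0.44 from the rest.

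The percent of H4 pairs past 1.5-fold lower and higher was 21.7 and 25.5 with absent values at 0.5 of the lowest, which by itself puts absent pairs past the fold. It was 1.17 and 10.1 for the strongest pairs, 0.994 and 1.72 with lists scaled, 1.019 and 1.72 with quantile normalization, 0.941 and 1.53 with size adjustment, and 1.22 and 5.91 for local maxima. The 42MGBA percents were 52.6 and 10.1, 32.1 and 0.276, 6.92 and 0.247, 6.53 and 0.279, 6.76 and 0.16, and 17.4 and 0.401 in the same order, and 0.139 higher with pairs listed in both lines. Of the 11p pairs among the 100000 strongest of 42MGBA, 53.2% were also in 42MGBA 53-1. The correlation of window medians was 0.35 with pairs listed in both lines and 0.46 with the strongest pairs, over fewer windows than in the main setting, and its cause was not tested. Inward motif pairs outnumbered outward pairs by 7.33 times among local maxima, and by 2.08 times with the looser motif. Shares of windows below the genome median and median loop sizes stayed within 1.5 times, and gene list medians ran from -0.35 to 0.34 with the start inside the anchor and from -0.38 to 0.34 with the start within 3 kb. Pooled lists without counts limit all values, and no difference here has an error.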

Other observations

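Chromosome 11 pairs past 1.5-fold higher in 42MGBA 53-1 lay in 4 windows of 11q, with 9 at 100 to 105 Mb, 1 at 110 to 115 Mb, 2 at 115 to 120 Mb and 8 at 120 to 125 Mb. Short loops were the class with the smallest difference on 11q in the 42MGBA pair, with a median log2 ratio of -0.01 and a share of 77.1% also listed at under 100 kb, where the rest of the genome had 0.00 and 71.4%. On 11p the same class had -0.15 and 25.8%. The window 105 to 110 Mb was the single 11q window among the 20 lowest of the genome by the share of pairs also listed after correction, with 261 pairs in 42MGBA and 97 in 42MGBA 53-1, and in the H4 pair it held 112 pairs in H4 and 115 in H4 88-1, of which 46.4% of the H4 pairs were in both lists. No hypothesis was tested on these values.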
